A study of Homo sapiens with 9 samples.

Results

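The 10 genes described here encode the proteins that copy, place and oxidise DNA methylation, with 2 partners of UHRF1 in chromatin. They were taken by symbol from the gene count table of hTERT_RPE1 cells, an established line of telomerase-immortalised retinal pigment epithelial cells. All 10 of the 26475 genes in the table were found, and all 10 passed the filter on low counts that left 13784 genes for testing. They were UHRF1, UHRF2, DNMT1, HELLS and SUV39H1, the de novo methyltransferases DNMT3A and DNMT3B, and the oxidases TET1, TET2 and TET3. The question put to them was whether their RNA moved when PIP4K2B, a lipid kinase that phosphorylates PtdIns5P, was silenced, or when cells grew on a soft substrate, and whether that movement differed from that of replication genes such as MCM2.

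The 9 libraries came from 3 conditions of 3 libraries each, all of cells kept for 24 h on a fibronectin coat. In sh_PIP4K2B the cells stood on glass and each library came from another hairpin against PIP4K2B (#1, #2 and #3), so its spread holds the differences between hairpins. Control cells stood on glass and Soft cells on a 2.3 kPa hydrogel. Both carried a lentiviral control, which the methods and titles name as empty pLKO_1 vector and the treatment label as a control shRNA. No source says that replicates of Control or Soft were separate cultures, so p-values measure the spread between these libraries, which may be technical. Total counts were between 19217336 and 24020796 per library. PIP4K2B itself was at 123, 124 and 120 CPM (counts set against the library total, scaled by TMM) in Control, at 48.4, 40.9 and 36.6 CPM with hairpins #1, #2 and #3, and at 119, 122 and 127 CPM in Soft, which puts the hairpin libraries below all others. Of the retinal pigment epithelium genes, the defining RPE65, TTR, TYR, LRAT and RLBP1 were at or below 0.524 CPM in every library, MITF was between 24.4 and 39.3 CPM, and the epithelial keratins KRT8 and KRT18 were between 336 and 1136 CPM. The summed level of the 12 genes of this list ran from 1961 to 2110 CPM for Control, from 740 to 1147 CPM for sh_PIP4K2B and from 920 to 972 CPM for Soft. In each condition 9 of the 12 had a mean below 1 CPM, so the sum is mainly that of KRT8 and KRT18. KRT18 passed lower in both comparisons (-1.10 and -1.31) and KRT8 in Soft (-0.98), BEST1, at under 1 CPM, passed higher in Soft (2.23), and the part of these shifts in the other results was not tested.

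DNA methylation at CpG sites is diluted at each round of replication and restored behind the fork. UHRF1 reads the hemimethylated site and methylated histone H3K9 and recruits DNMT1, the maintenance methyltransferase. HELLS (LSH) is a chromatin remodeller that opens nucleosomal DNA to methylation, and SUV39H1 writes H3K9me3. DNMT3A and DNMT3B methylate new sites, and TET1, TET2 and TET3 oxidise 5-methylcytosine on the way to its removal. UHRF2 resembles UHRF1 in domain structure. UHRF1, DNMT1 and HELLS are widely known as genes of cycling cells whose RNA rises around S phase under E2F factors, and MCM2 to MCM7 encode the replicative helicase.

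The start regions of UHRF1, DNMT1, HELLS and MCM2 are shown because these 4 genes carried, in the RefSeq window (GRCh38.p14) nearest the canonical transcript start, 1 of 4 E2F-type 8-mers searched on both strands, TTTCCCGC, TTTCGCGC, TTTGCCGC and TTTGGCGC. Each line gives 250 bases before the start and the first 20 bases of the transcript, on the gene's strand, with matches in capitals.
UHRF1, chr19:4909251-4909520, plus strand: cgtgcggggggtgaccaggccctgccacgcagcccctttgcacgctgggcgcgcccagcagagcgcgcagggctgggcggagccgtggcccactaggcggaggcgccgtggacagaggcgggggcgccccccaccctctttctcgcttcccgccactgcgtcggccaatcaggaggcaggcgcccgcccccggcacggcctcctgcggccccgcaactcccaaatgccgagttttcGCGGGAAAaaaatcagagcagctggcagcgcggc
DNMT1, chr19:10194934-10195203, minus strand: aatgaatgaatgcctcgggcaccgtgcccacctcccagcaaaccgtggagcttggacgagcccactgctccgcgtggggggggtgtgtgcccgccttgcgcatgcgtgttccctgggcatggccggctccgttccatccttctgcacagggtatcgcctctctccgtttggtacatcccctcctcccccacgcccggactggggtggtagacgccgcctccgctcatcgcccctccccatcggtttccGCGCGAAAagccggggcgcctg
HELLS, chr10:94545538-94545807, plus strand: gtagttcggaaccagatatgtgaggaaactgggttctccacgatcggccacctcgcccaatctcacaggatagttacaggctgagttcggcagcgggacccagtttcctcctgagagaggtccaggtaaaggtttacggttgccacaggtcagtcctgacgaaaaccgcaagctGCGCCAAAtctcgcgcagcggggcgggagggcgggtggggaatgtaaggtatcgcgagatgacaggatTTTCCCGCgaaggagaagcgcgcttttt
MCM2, chr3:127598161-127598430, plus strand: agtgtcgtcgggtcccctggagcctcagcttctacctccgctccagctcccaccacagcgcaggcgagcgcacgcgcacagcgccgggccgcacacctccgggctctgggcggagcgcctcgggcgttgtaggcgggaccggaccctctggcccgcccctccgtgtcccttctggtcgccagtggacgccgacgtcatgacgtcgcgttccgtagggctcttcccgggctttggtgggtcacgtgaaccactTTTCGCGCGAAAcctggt

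In the nearest window the match began 14 bases before the start in UHRF1 and 2 bases before it in DNMT1. Another window of UHRF1, for a start 643 bases away, held TTTCGCGC from 160 bases before that start. HELLS had 2 matches, which began 76 and 8 bases before the start. In MCM2 the letters read on both strands overlapped and ran across bases 3 to 14 of the transcript. None of the windows of UHRF2, SUV39H1, DNMT3A, DNMT3B, TET1, TET2 or TET3 held these letters. The only window of DNMT3B lies 17467 bases from its canonical start, so that start was not searched. Any of the 4 8-mers stood in 3.30% of 34943 windows of the same 300 bases, in 3.97% of 27167 genes when all windows of a gene are pooled, and in 17 of 36 replication genes with a window. The TEAD-type letters GGAATG, present in 14.0% of all windows, were in the window of HELLS, in 1 of 2 windows of SUV39H1 and in 1 of 3 windows of TET1, and in none of UHRF1 or the other members, which says only what these letters do in these windows.

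Some reads of these genes could come from elsewhere. UHRF1 lies on chromosome 19 from 4903080 to 4962154, and 25.4% of the 75-base stretches of its transcript also occur in a processed pseudogene on chromosome 12. For TET3 this share was 2.64%, with an overlapping noncoding RNA on the same strand, for UHRF2 0.171% and for the other 7 genes 0. An antisense noncoding RNA overlaps 685 bases of SUV39H1 exons. The exons of MCM2, the replication gene set beside UHRF1 below, are overlapped over a longer stretch by a gene on the opposite strand. The libraries were stranded, but the strand setting of the counting is not given in the sources used here.

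Per kilobase of canonical transcript, DNMT1 and UHRF1 stood highest in Control, with UHRF2 next. DNMT1 was at 36.5 ± 0.762, UHRF1 at 31.8 ± 0.391 and UHRF2 at 15.6 ± 0.649 CPM per kb (SD, n = 3). HELLS was at 9.9985 ± 1.16 and SUV39H1 at 8.02 ± 0.393 CPM per kb, followed by TET2 at 1.82 ± 0.236, TET3 at 1.69 ± 0.121 and DNMT3A at 1.11 ± 0.116 CPM per kb. DNMT3B at 0.774 ± 0.117 and TET1 at 0.179 ± 0.0339 CPM per kb were the lowest. Among neighbours in this order only the libraries of TET2 and TET3 overlapped. In Soft the order changed. UHRF2 (21.3 ± 1.22 CPM per kb) drew level with UHRF1 (20.2 ± 0.768 CPM per kb), with overlapping libraries, and DNMT3A (3.53 ± 0.0817 CPM per kb) reached the level of HELLS (3.00 ± 0.510 CPM per kb), whose libraries overlapped it.

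**Figure D1:**
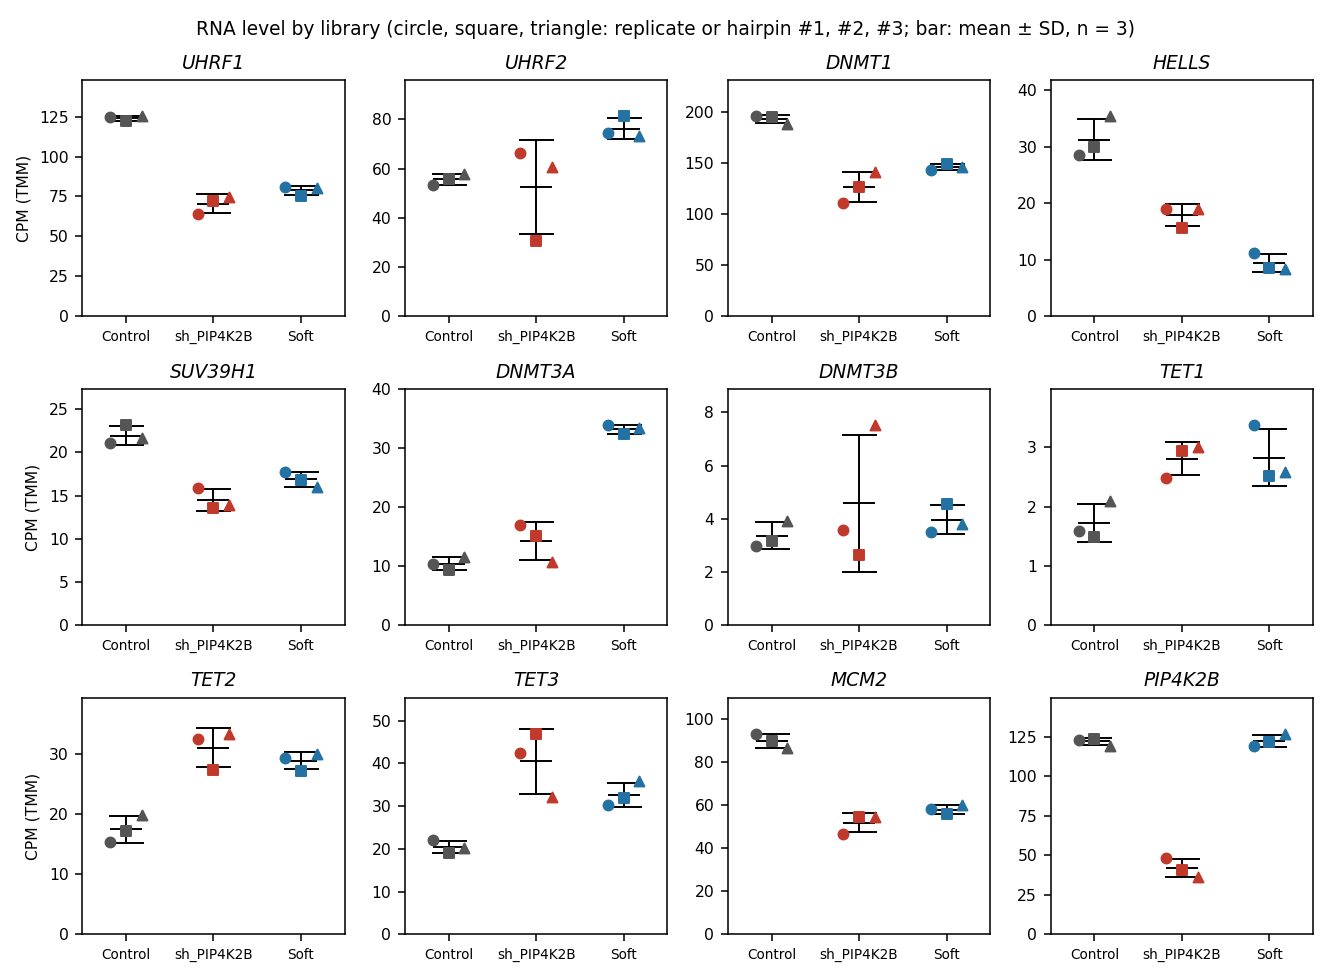
RNA level of the 10 genes, MCM2 and PIP4K2B in each of the 9 libraries, in TMM-scaled CPM on axes from 0. Points are libraries (circle, square and triangle for replicate or hairpin #1, #2 and #3) and bars the mean ± SD of 3. UHRF1, DNMT1, HELLS and SUV39H1 lie below Control in all 6 other libraries, and TET2 and TET3 above it.

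UHRF1 RNA fell with each hairpin and on the soft gel. It was at 124.6, 122.3 and 125.1 CPM in Control, at 63.9, 72.4 and 74.99 CPM with hairpins #1, #2 and #3, and at 80.9, 75.4 and 80.3 CPM in Soft. All 6 libraries lay below every Control library, and the hairpins left 51.5%, 58.4% and 60.5% of the Control mean. PIP4K2B was at 39.6%, 33.5% and 30.0% of its Control mean in the same libraries, so that the hairpin leaving the most PIP4K2B RNA had the least UHRF1 RNA. The log2 fold change was -0.82 (SE 0.10) in sh_PIP4K2B (edgeR quasi-likelihood test, adjusted p = 0.00119) and -0.65 (SE 0.10) in Soft (edgeR, adjusted p = 0.000573). Fewer cells in S phase and less RNA per cell cannot be told apart in bulk libraries. In the hairpin comparison the adjusted p was 0.0106 without Control replicate 1, 0.0110 without Control replicate 2 and 0.0199 in a fit of the 2 conditions alone (edgeR), with log2 fold changes of -0.81, -0.83 and -0.82. In Soft it was under 0.01 in all 16 alternatives.

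DNMT1, the enzyme that UHRF1 recruits, moved the same way by less. It was at 195, 194 and 188 CPM in Control, 111, 126 and 141 CPM with the hairpins and 143, 149 and 146 CPM in Soft, again without overlap with Control. The log2 fold change of -0.61 (SE 0.11) in sh_PIP4K2B passed 0.01 (edgeR, adjusted p = 0.00639), and that of -0.40 (SE 0.11) in Soft did not (edgeR, adjusted p = 0.0128). In sh_PIP4K2B the call was lost in 9 of 16 alternatives, those without a Control library among them. In Soft it passed with DESeq2 (adjusted p = 0.000402), in a fit of Soft and Control alone (edgeR, adjusted p = 1.17e-07) and when any 1 hairpin library was left out (edgeR, adjusted p = 0.000893 to 0.00844). The ratio of DNMT1 to UHRF1 CPM was 1.55 ± 0.0455 for Control, 1.79 ± 0.0805 for sh_PIP4K2B and 1.85 ± 0.107 for Soft (SD, n = 3).

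HELLS showed the largest fall of the 10 genes on the soft gel. Its libraries were at 28.5, 29.9 and 35.4 CPM in Control, 19.02, 15.7 and 18.98 CPM with the hairpins and 11.2, 8.62 and 8.31 CPM in Soft. The 3 conditions formed 3 separate ranges, and Soft kept 30.0% of the Control mean. In sh_PIP4K2B HELLS changed by -0.80 on the log2 scale (SE 0.15, edgeR adjusted p = 0.00892) and in Soft by -1.74 (SE 0.16, edgeR adjusted p = 4.96e-05). The value in sh_PIP4K2B lay near the threshold and passed it in 6 of 16 alternatives, and the value in Soft in all 16.

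SUV39H1, the H3K9 methyltransferase, was at 21.0, 23.1 and 21.6 CPM in Control, 15.9, 13.6 and 13.9 CPM with the hairpins and 17.7, 16.8 and 16.05 CPM in Soft. Both sets lay below Control. The log2 fold change was -0.60 (SE 0.11) in sh_PIP4K2B (edgeR, adjusted p = 0.00826) and -0.38 (SE 0.11) in Soft, where it did not pass 0.01 (edgeR, adjusted p = 0.0196). In sh_PIP4K2B it passed in 6 of 16 alternatives, and in Soft it passed in 4, with DESeq2 (adjusted p = 0.00532), in the fit of 2 conditions (edgeR, adjusted p = 0.000142) and without hairpin #1 or #3 (edgeR, adjusted p = 0.00295 and 0.00788).

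UHRF2, the paralogue of UHRF1, did not follow it. It was at 53.2, 55.9 and 57.9 CPM in Control and at 74.4, 81.3 and 73.2 CPM in Soft, all Soft libraries being higher (log2 fold change 0.45, SE 0.23, edgeR adjusted p = 0.140). The hairpins gave 66.4, 30.8 and 60.7 CPM. Hairpin #2 stood at 55.4% of the Control mean and the other two at 119% and 109%, and without hairpin #2 the log2 fold change turned from -0.08 to 0.19, neither past the threshold. The spread set by that single library also enters the fit of Soft: without hairpin #2 the rise of UHRF2 in Soft passed (edgeR, adjusted p = 0.00230). The ratio of UHRF2 to UHRF1 CPM was 0.449 ± 0.0189 in Control and 0.970 ± 0.0938 in Soft (SD, n = 3).

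DNMT3A, a de novo methyltransferase, rose on the soft gel. It was at 10.4, 9.39 and 11.6 CPM in Control and at 33.9, 32.4 and 33.5 CPM in Soft, 3.18 times the Control mean (log2 fold change 1.67, SE 0.17, edgeR adjusted p = 8.06e-05). The hairpins differed, with 17.0 CPM for #1, 15.2 CPM for #2 and 10.8 CPM for #3, the last within the Control range. Their log2 fold change of 0.46 (SE 0.17) did not pass (edgeR, adjusted p = 0.0913). Without hairpin #3 it was 0.62 and passed (edgeR, adjusted p = 0.00575). The ratio of DNMT3A to DNMT1 CPM was 0.0544 ± 0.00672 in Control, 0.117 ± 0.0383 in sh_PIP4K2B and 0.228 ± 0.00995 in Soft (SD, n = 3).

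DNMT3B was low, at 2.98, 3.16 and 3.93 CPM in Control and 3.51, 4.57 and 3.80 CPM in Soft, and the hairpins gave 3.59, 2.65 and 7.51 CPM. Hairpin #3 alone stood above Control. Neither the log2 fold change of 0.45 (SE 0.35) in sh_PIP4K2B (edgeR, adjusted p = 0.403) nor that of 0.24 (SE 0.35) in Soft (edgeR, adjusted p = 0.604) passed. With counts of 55 to 152 per library, a change in Soft of up to 0.92 lies inside the approximate 95% interval (-0.45 to 0.92).

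TET2 and TET3 rose in both comparisons. TET2 was at 15.3, 17.3 and 19.8 CPM in Control, 32.5, 27.4 and 33.4 CPM with the hairpins and 29.5, 27.3 and 30.0 CPM in Soft. The log2 fold change was 0.83 (SE 0.13) in sh_PIP4K2B (edgeR, adjusted p = 0.00389) and 0.73 (SE 0.13) in Soft (edgeR, adjusted p = 0.00173). TET3 was at 22.0, 19.1 and 20.2 CPM in Control, 42.5, 46.8 and 32.1 CPM with the hairpins and 30.1, 32.0 and 35.8 CPM in Soft. Its log2 fold change was 0.99 (SE 0.15) in sh_PIP4K2B (edgeR, adjusted p = 0.00350) and 0.67 (SE 0.15) in Soft (edgeR, adjusted p = 0.00540). For both genes every hairpin and Soft library lay above every Control library. In sh_PIP4K2B the call was lost in 8 of 16 alternatives for TET2 and in 6 for TET3, and in Soft in 3 and 7, those of TET3 being the replicate block and each fit without a Control or a Soft library (edgeR, adjusted p = 0.0134 to 0.0290). TET1, at counts of 34 to 74 per library, was at 1.58, 1.49 and 2.10 CPM in Control, 2.49, 2.94 and 3.02 CPM with the hairpins and 3.37, 2.52 and 2.59 CPM in Soft, also without overlap. Its log2 fold changes of 0.70 (SE 0.22) and 0.71 (SE 0.22) were of similar size to those of TET2 but did not pass (edgeR, adjusted p = 0.0582 and 0.0256).

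Counted together, 6 of the 10 genes passed 0.01 in sh_PIP4K2B, 2 higher (TET2 and TET3) and 4 lower (UHRF1, DNMT1, HELLS and SUV39H1). Of all genes tested 5.54% passed, 2.76% higher and 2.77% lower. The libraries of 7 of the 10 genes did not overlap with Control, which was so for 34.1% of all genes. The count of 6 changed with the libraries in the fit. It was 0, 0 and 1 without Control replicate 1, 2 or 3, was 2, 1 and 2 without Soft replicate 1, 2 or 3, and was 0 in a fit of these 2 conditions alone, while the calls over all genes went from 763 to 122, 66 and 161 without a Control library and to 5 in the fit of 2 conditions. In Soft 5 of the 10 passed, 3 higher (DNMT3A, TET2 and TET3) and 2 lower (UHRF1 and HELLS), where 30.6% of all genes passed, 15.8% higher and 14.8% lower. The count of 5 became 3 without Control replicate 1 or 2 or Soft replicate 3. With scaling by library size alone, calls over all genes in Soft went from 2181 higher and 2036 lower to 2484 higher and 1468 lower, and the median of all genes shifted to 0.14 in sh_PIP4K2B and 0.12 in Soft. The libraries of 9 of the 10 genes did not overlap with Control in Soft, near the 79.4% of all genes. Both comparisons share the Control libraries.

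**Figure D2:**
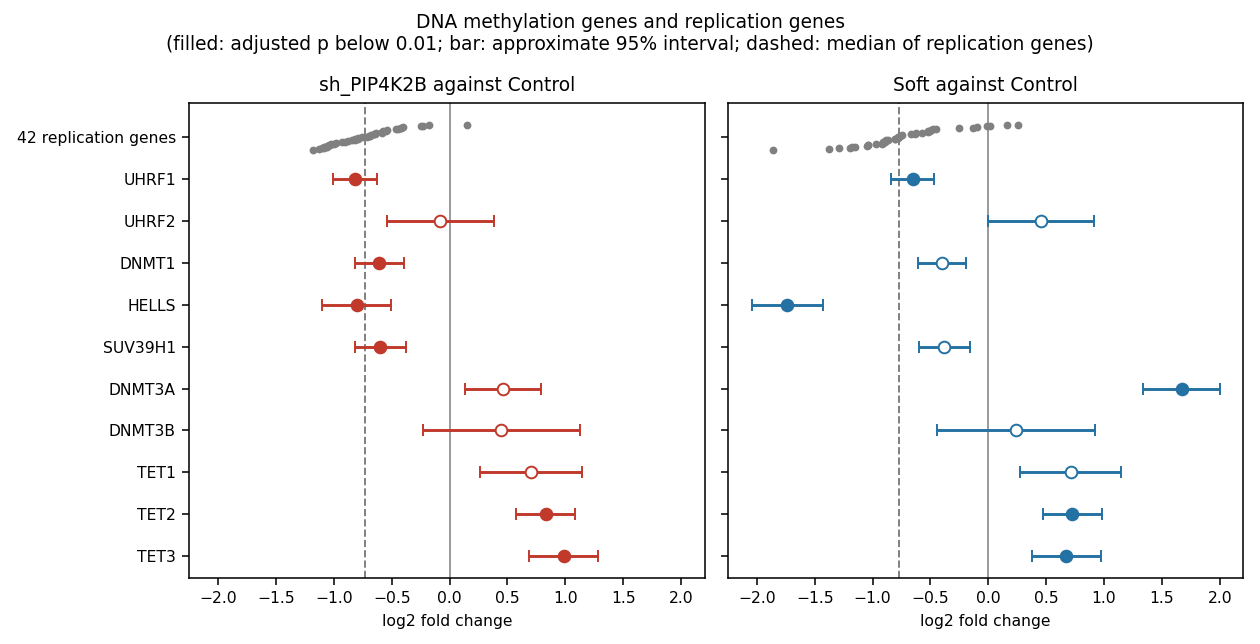
Log2 fold change (x axis) of the 10 genes in sh_PIP4K2B (left) and Soft (right) against Control, with approximate 95% intervals and filled points where the edgeR adjusted p is under 0.01; grey points are the 42 replication genes and the dashed line is their median. UHRF1, DNMT1, HELLS and SUV39H1 lie near the dashed line on the left, and HELLS lies below it and DNMT3A far above 0 on the right.

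The reference list of 42 genes of DNA replication (helicase, origin, polymerase, clamp and nucleotide supply genes) fell in both comparisons. In sh_PIP4K2B 27 of 42 passed lower and none higher, with a median log2 fold change of -0.73 against 0.05 for all genes. In Soft 31 of 42 passed lower and none higher, with a median of -0.77 against 0.01 for all genes. MCM2 was at 93.1, 90.0 and 86.8 CPM in Control, 46.7, 54.4 and 54.8 CPM with the hairpins and 58.1, 55.8 and 60.2 CPM in Soft. Its log2 fold changes of -0.79 (SE 0.10) and -0.63 (SE 0.10) stand beside -0.82 and -0.65 for UHRF1, and both passed (edgeR, adjusted p = 0.00149 and 0.000797). Of MCM2 to MCM7 all 6 passed lower in sh_PIP4K2B and 5 in Soft, MCM7 being the other (-0.13, SE 0.10, edgeR adjusted p = 0.291). The count of 27 fell to 10, 6 and 13 without Control replicate 1, 2 or 3 and to 17 without Soft replicate 3. The proliferation marker MKI67, named here after its values were seen, was at 335 to 339 CPM in Control, 130, 199 and 146 CPM with the hairpins and 257, 277 and 286 CPM in Soft. The cell cycle inhibitor CDKN1A, also named after its values were seen, was at 744 to 777 CPM in Control, 5866, 3888 and 1118 CPM with hairpins #1, #2 and #3 and 342 to 372 CPM in Soft. MKI67 passed lower in sh_PIP4K2B (edgeR, adjusted p = 0.00244) and did not pass in Soft (edgeR, adjusted p = 0.129). CDKN1A passed in neither (edgeR, adjusted p = 0.0122 in sh_PIP4K2B and 0.0684 in Soft). The part that the share of cycling cells plays in the falls of the replication genes and of UHRF1 was not tested.

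UHRF1 and MCM2 ran in parallel across the 9 libraries. The ratio of UHRF1 to MCM2 CPM was 1.38 ± 0.0546 in Control, 1.36 ± 0.0205 in sh_PIP4K2B and 1.36 ± 0.0290 in Soft (SD, n = 3). When the log2 CPM of each gene was centred over the 9 libraries, MCM2 had the smallest root mean square difference from UHRF1 of the 13783 other genes tested, at 0.034. DIAPH1, which encodes a formin that nucleates actin filaments, came next at 0.053, followed by the spindle checkpoint kinase gene TTK at 0.064, YWHAH, which encodes a 14-3-3 protein, at 0.075 and the kinetochore gene DSN1 at 0.076. DNMT1 was at rank 32 (0.12) and SUV39H1 at rank 151 (0.17), whereas HELLS was at rank 7326 (0.54), UHRF2 at 7682 and DNMT3A at 12314. The replication genes ran from MCM2 at rank 1 to PCNA at rank 7511 (0.55), a range that holds HELLS. These distances describe 9 libraries in 3 conditions and carry no test.

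**Figure D3:**
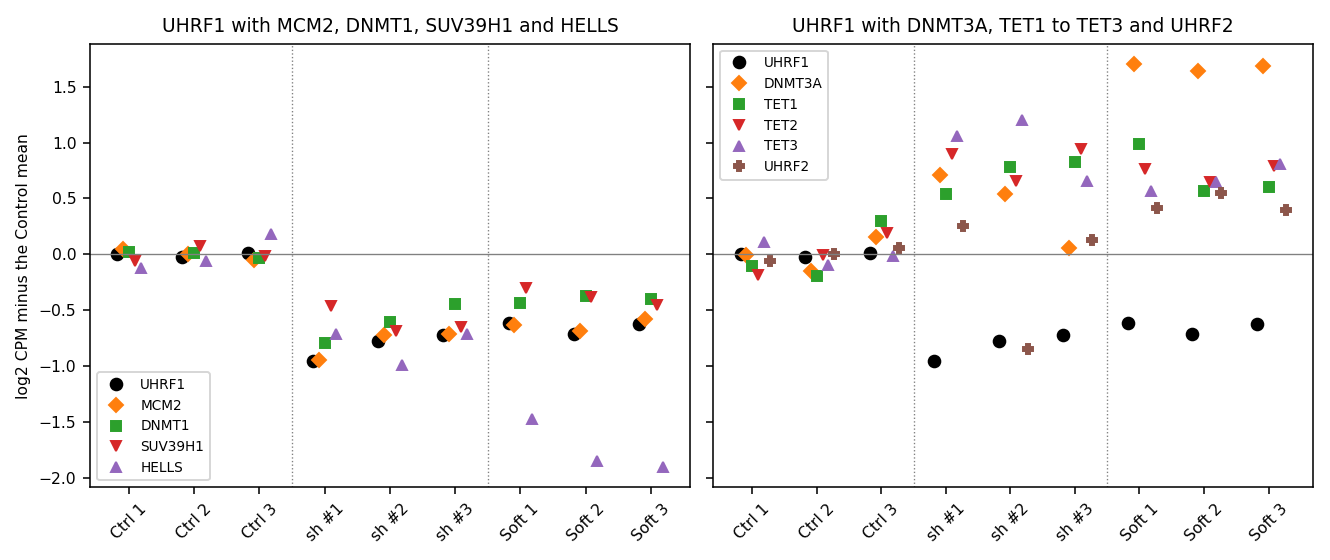
Log2 CPM minus the Control mean (y axis) in each of the 9 libraries (x axis, Ctrl for Control and sh for sh_PIP4K2B). The points of MCM2 lie close to those of UHRF1 in all 9 libraries, HELLS separates from them in Soft, and DNMT3A, TET1, TET2 and TET3 lie above 0 in every hairpin and Soft library, with DNMT3A in hairpin #3 within its Control range.

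To set the 10 genes against replication directly, the libraries were scaled so that the mean log2 CPM of the 42 replication genes was equal in all, and the same edgeR fit was repeated. This scaling moved the median of all genes to 0.79 in sh_PIP4K2B and 0.73 in Soft, so a rise under it is to be read beside that shift. On this scale UHRF1 changed by -0.08 (SE 0.10) in sh_PIP4K2B (edgeR, adjusted p = 0.490) and by 0.07 (SE 0.10) in Soft (edgeR, adjusted p = 0.574), with approximate 95% intervals of -0.27 to 0.12 and -0.13 to 0.26. With MCM2 to MCM7 alone as the reference, the value in Soft was -0.10. DNMT1 was at 0.13 (SE 0.11, edgeR adjusted p = 0.312) and 0.32 (SE 0.11, edgeR adjusted p = 0.0322), and SUV39H1 at 0.14 (SE 0.12, edgeR adjusted p = 0.309) and 0.34 (SE 0.12, edgeR adjusted p = 0.0336). None of these passed 0.01, which does not show that they equal the replication genes. In Soft DNMT1 passed higher on this scale with DESeq2 (adjusted p = 0.00623), without hairpin #1 or #3 (edgeR, adjusted p = 0.00943 and 0.00305) and in a fit of the 2 conditions alone (edgeR, adjusted p = 4.26e-06), and SUV39H1 without hairpin #1 (edgeR, adjusted p = 0.00714) and in the fit of 2 conditions (edgeR, adjusted p = 0.000325).

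HELLS in sh_PIP4K2B was at -0.06 relative to the replication genes (SE 0.16, interval -0.38 to 0.26, edgeR adjusted p = 0.748), a value that turned to 0.04 without Control replicate 3 and to 0.07 without hairpin #2. In Soft it fell further than the mean of these genes, by 1.02 on the log2 scale (SE 0.17, edgeR adjusted p = 0.000544), and this held in all 16 alternatives. Single replication genes ran from -1.14 to 0.98 on this scale in Soft, a range that holds HELLS. Of these 42 genes 5 passed lower and 6 higher. DNMT3A (1.19 in sh_PIP4K2B and 2.39 in Soft), TET1 (1.44 and 1.43), TET2 (1.57 and 1.44) and TET3 (1.72 and 1.39) passed higher in both, and UHRF2 in Soft (1.17, SE 0.26, edgeR adjusted p = 0.00323). The call of UHRF2 was lost without Control replicate 1, 2 or 3 or Soft replicate 2 (edgeR, adjusted p = 0.0125 to 0.0156). UHRF2 in sh_PIP4K2B (0.68, edgeR adjusted p = 0.0402) and DNMT3B (1.20 and 0.96, edgeR adjusted p = 0.0158 and 0.0441) did not. That made 4 of 10 in sh_PIP4K2B, all higher, where 56.5% of all genes passed, 56.3% higher and 0.225% lower. In Soft it made 6 of 10, 5 of them higher, where 53.9% of all genes passed, 50.9% higher and 2.98% lower. The share of the 10 genes that passed higher was thus not above that of all genes, while HELLS was among the 2.98% that passed lower in Soft. An exact two-sided permutation test of the log2 ratio to the replication genes cannot go below 0.10 with 3 libraries against 3, and over 30 pairs of gene and comparison 18 reached 0.10 (Benjamini-Hochberg adjusted p = 0.167).

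**Figure D4:**
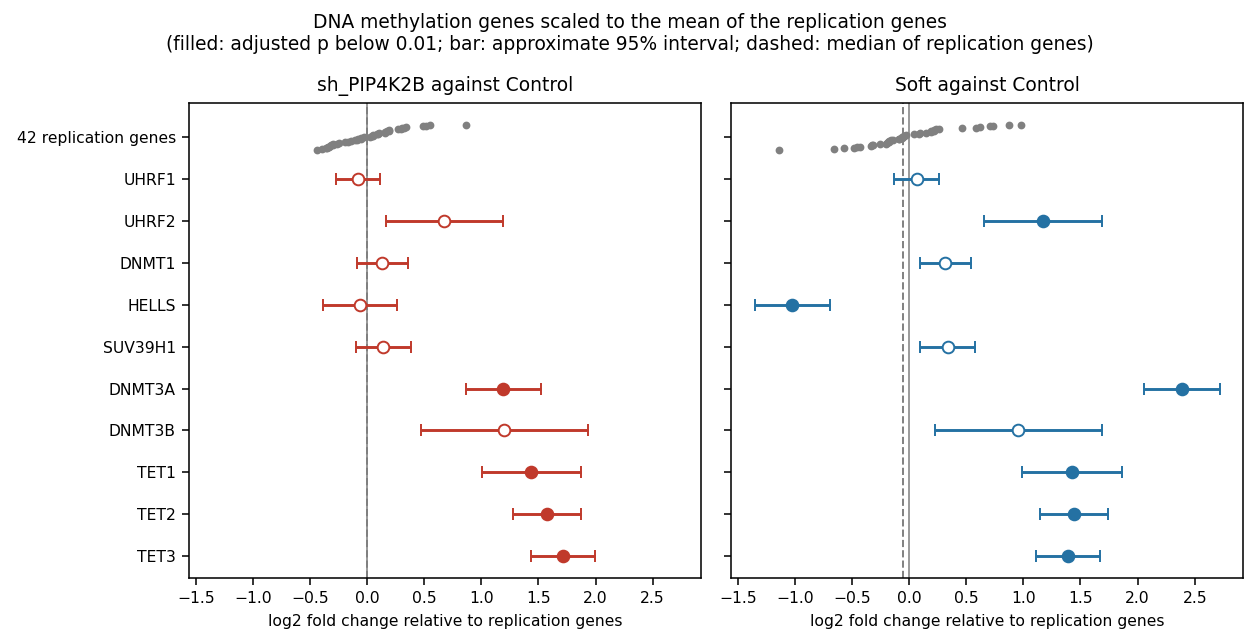
Log2 fold change of the 10 genes after all libraries were scaled to the mean of the 42 replication genes (grey points), in sh_PIP4K2B (left) and Soft (right) against Control, with approximate 95% intervals and filled points where the edgeR adjusted p is under 0.01. UHRF1 lies at -0.08 on the left and 0.07 on the right, HELLS at -0.06 and -1.02, and DNMT3A and the 3 TET genes lie above 1 in both. The median of all genes on this scale, not drawn, is 0.79 on the left and 0.73 on the right.

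Soft and sh_PIP4K2B were also compared directly, which tests whether the 2 responses differ. Of the 10 genes 2 passed, where 30.0% of all genes did, 14.5% higher and 15.5% lower. DNMT3A was higher in Soft by 1.21 (SE 0.17, edgeR adjusted p = 0.000420), and HELLS was lower, with -0.93 (SE 0.16, edgeR adjusted p = 0.00128). The other 8 did not pass. UHRF1 differed by 0.16 (interval -0.02 to 0.35, edgeR adjusted p = 0.189), DNMT1 by 0.21 (-0.0023 to 0.42, edgeR adjusted p = 0.140), TET2 by -0.10 (-0.36 to 0.15, edgeR adjusted p = 0.535) and TET3 by -0.31 (-0.60 to -0.02, edgeR adjusted p = 0.116). The interval of TET3 left out 0 although its unadjusted p was 0.0656 (edgeR), since these limits are narrower than those of the test. Without hairpin #3 the difference of TET3 was -0.46 and passed (edgeR, adjusted p = 0.00709). The libraries of the 2 conditions did not overlap for 6 of the 10 genes, near the 54.0% of all genes. Of the 42 replication genes 8 passed, 4 in each direction, with a median of 0.06 that turned to -0.02 without hairpin #3. The count of 8 was 5 without any 1 Control library and 4 without any 1 Soft library.

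Other genes of these pathways were taken from lists written with results of these data known, and they are given by counts, by their medians beside those of all genes (0.05 in sh_PIP4K2B and 0.01 in Soft) and by the genes with the lowest adjusted p. Their counts stand beside the 5.54% and 30.6% of all genes that passed. Of 10 partners of maintenance methylation, 1 passed in sh_PIP4K2B and 3 in Soft, all lower, with medians of 0.07 and -0.13. PCLAF, a PCNA-binding protein that UHRF1 ubiquitinates, was at 34.9, 34.5 and 33.2 CPM in Control and 17.4, 22.6 and 17.0 CPM with the hairpins (log2 fold change -0.85, SE 0.13, edgeR adjusted p = 0.00319). CDCA7, the partner that brings HELLS to chromatin, fell in Soft from 15.9, 17.6 and 20.5 to 8.53, 6.38 and 6.66 CPM (-1.32, SE 0.22, edgeR adjusted p = 0.00108). USP7, a deubiquitinase of UHRF1 and DNMT1, fell by 0.45 (SE 0.11, edgeR adjusted p = 0.00779) and PCNA, the sliding clamp, by 0.89 (SE 0.22, edgeR adjusted p = 0.00894), both in Soft. PCNA was at 138, 234 and 118 CPM with the hairpins and at 144 to 155 CPM in Control.

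Of 13 other genes of H3K9 methylation and its readers, none passed in sh_PIP4K2B and 2 passed in Soft in opposite directions, with medians of 0.08 and -0.22. EHMT2, which encodes the H3K9 mono- and dimethyltransferase G9a, rose from 54.3, 52.3 and 51.5 CPM in Control to 111, 114 and 113 CPM in Soft (1.09, SE 0.14, edgeR adjusted p = 0.000315), with 31.0, 39.5 and 47.8 CPM under the hairpins. SUV39H2, the paralogue of SUV39H1, fell in Soft by 0.95 (SE 0.19, edgeR adjusted p = 0.00319). Of 8 readers of methylated CpG none passed in sh_PIP4K2B and 1 in Soft, MBD2 (-0.44, SE 0.10, edgeR adjusted p = 0.00523), with medians of -0.05 and 0.08.

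Among 13 tested genes of active demethylation and its repair, 1 passed higher and 1 lower in sh_PIP4K2B, and 4 higher and 2 lower in Soft, with medians of 0.27 and 0.03. CXXC4, a CXXC zinc finger gene that binds TET2, rose from 0.140, 0.439 and 0.262 CPM in Control to 2.03, 4.24 and 2.42 CPM with the hairpins (3.33, SE 0.42, edgeR adjusted p = 0.00149) and to 2.51, 2.29 and 2.19 CPM in Soft (3.02, SE 0.42, edgeR adjusted p = 0.000428). Its Control libraries held 3, 10 and 6 counts, against a floor of 3 counts that lay at 0.131 to 0.140 CPM there, so the fold depends on very few reads. CXXC5, its relative, rose in Soft from 24.1, 23.4 and 20.1 to 82.1, 75.6 and 80.5 CPM (1.82, SE 0.17, edgeR adjusted p = 5.28e-05). NEIL3, a DNA glycosylase of replicating cells, fell in both (-0.98 and -1.33), and NEIL1, another glycosylase, rose in Soft (2.21, SE 0.23, edgeR adjusted p = 9.78e-05).

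Of 13 genes that supply the methyl donor or the TET cosubstrate 2-oxoglutarate, 2 passed lower in sh_PIP4K2B, SHMT1 (-0.67, SE 0.12, edgeR adjusted p = 0.00699) and IDH2 (-0.96, SE 0.16, edgeR adjusted p = 0.00557). The medians of this list were -0.25 and 0.06. In Soft 3 passed higher and 1 lower, and of these SHMT1 (0.70, SE 0.12, edgeR adjusted p = 0.00114) and IDH1 (0.50, SE 0.09, edgeR adjusted p = 0.00138), both higher, are reported here. SHMT1, a serine hydroxymethyltransferase of one-carbon metabolism, thus passed in opposite directions, with 15.7, 15.4 and 15.2 CPM in Control, 9.58, 11.03 and 8.55 CPM with the hairpins and 24.5, 25.2 and 25.6 CPM in Soft. Of 13 genes of the E2F and pocket protein family, 4 passed lower and 1 higher in sh_PIP4K2B, and 3 lower and 2 higher in Soft, with medians of 0.04 and -0.57. E2F1 fell in both (-0.92, SE 0.12, edgeR adjusted p = 0.00157, and -1.02, SE 0.12, edgeR adjusted p = 0.000152), as did RBL1 (-0.89 and -0.94). Log2 fold changes of this family ran from -1.12 to 1.16 in sh_PIP4K2B and from -1.05 to 0.79 in Soft, and the genes that passed higher are not named here.

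Germline genes whose silence rests on promoter methylation in other cells were read as a check on the RNA level, and imprinted genes were read beside them. Of 35 germline genes 1 passed the filter on low counts, and their summed level stayed between 1.27 and 2.37 CPM in all 9 libraries, with at most 1.76 CPM for Control, 2.07 CPM for sh_PIP4K2B and 2.37 CPM for Soft. In Control, sh_PIP4K2B and Soft, 28, 24 and 29 of the 35 had 0 counts, and 34, 35 and 34 had a mean below 1 CPM. The sum thus rests on few genes and says little of the rest. Of 14 tested imprinted genes 1 passed lower in sh_PIP4K2B, and 1 passed higher and 3 lower in Soft, with medians of 0.05 and -0.38. CDKN1C, a cyclin-dependent kinase inhibitor gene, was at 0.279, 0.176 and 0.0874 CPM in Control, which were 6, 4 and 2 counts with the last under the floor of 3, and 3.47, 3.14 and 3.44 CPM in Soft (4.18, SE 0.38, edgeR adjusted p = 5.15e-05). MEST (-1.09), PHLDA2 (-1.11) and PEG10 (-1.23) fell in Soft. DNA methylation itself was not analysed here.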

How the data were processed

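RNA of 9 hTERT_RPE1 libraries was read as stranded mRNA-seq. The values used are expected counts (estimated counts) per gene, which the authors made before they deposited them: reads were aligned to GRCh38 with STAR, and the submitters' processing notes also name Salmon with no role, so the tool that counted is not given in the sources used here. Of the deposited values 12.3% were not whole, and all were rounded. The members of the gene set, the reference list and the other lists were chosen with earlier results of these data known. The filterByExpr step of edgeR 4.0.16 left 13784 of 26475 genes, TMM factors were computed, and 1 quasi-likelihood model with the 3 conditions was fitted to all 9 libraries. The Benjamini-Hochberg adjustment ran over all genes tested, with a threshold of 0.01. SEs were derived from the F statistic. Intervals are log2 fold changes with approximate 95% limits. For the scaling to replication genes, the library offsets were set so that the mean log2 CPM of the 42 genes was equal. Named genes of the other lists were up to 4 a comparison with the lowest adjusted p among those that passed, and the 5 genes nearest to UHRF1 were named. CPM used the TMM-scaled totals, and a floor of 3 counts was 0.131 to 0.148 CPM, which covers counting error only. The scripts were tested on simulated data. Alternatives were DESeq2 1.42.0, other scalings, filters and thresholds, a fit of the 2 conditions compared, a replicate block, other reference genes and leaving out each library. Transcript lengths and gene positions came from GENCODE on GRCh38 and promoter windows from RefSeq. Some genes of the methyl donor list are not reported here.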

Additional observations from a re-analysis of the deposited data

Results flagged for a closer look

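For 2 of the 10 genes the response on the soft gel differed from that to the hairpins in a direct test of the 2 conditions, which 30.0% of all genes passed. DNMT3A was higher in Soft than in sh_PIP4K2B by 1.21 on the log2 scale (edgeR, adjusted p = 0.000420), in 3 of 3 libraries against all 3 hairpins. HELLS was lower, with a difference of -0.93 (edgeR, adjusted p = 0.00128), also in 3 of 3 libraries. The libraries of the 2 conditions did not overlap for 54.0% of all genes. Both kept their call in all 16 alternatives, with ranges of 1.04 to 1.34 for DNMT3A and -1.08 to -0.85 for HELLS. No group had 4 or more libraries, so no library was examined for standing apart from its group.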

How the results depend on the processing

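The main fit did not pair libraries by replicate number. Same-numbered libraries did not deviate together (r between -0.115 and 0.0394 across genes). This cannot show whether they were paired, since there are 3 libraries a condition and each sh_PIP4K2B library also holds its own hairpin. In sh_PIP4K2B the 6 genes called became 3 with scaling by library size alone, 0 in the fit of the 2 conditions compared, 1 with the replicate block and 0 to 7 when 1 library was left out. The 27 replication genes called became 0 in the fit of 2 conditions, 14 with the replicate block and 6 to 31 with 1 library left out. Calls over all genes in sh_PIP4K2B went from 763 to 5 in the fit of 2 conditions, 295 with the replicate block, 1660 to 2013 without a hairpin library, 313 to 338 without a Soft library and 2066 with DESeq2. In Soft the 5 genes called became 9 in the fit of 2 conditions, 8 at a threshold of 0.05 and 3 to 7 with 1 library left out, and calls over all genes went from 4217 to 9601 in the fit of 2 conditions. Between Soft and sh_PIP4K2B the 8 replication genes called became 3 in the fit of 2 conditions, 5 with the replicate block and 4 to 11 with 1 library left out, and their median ran from -0.022 to 0.078. Signs turned for small values. UHRF2 in sh_PIP4K2B was 0.037 with scaling by library size alone and -0.29 to 0.19 with 1 library left out, and DNMT3B ran from -0.11 to 0.72. Between Soft and sh_PIP4K2B DNMT3B ran from -0.49 to 0.33 and TET1 from -0.14 to 0.085, with -0.08 without hairpin #1. Relative to the replication genes HELLS in sh_PIP4K2B ran from -0.13 to 0.065, with 0.04 without Control replicate 3, and UHRF1 in Soft was -0.10 with MCM2 to MCM7 alone as reference. The cause was not tested. Counts of 34 to 74 for TET1 and 55 to 152 for DNMT3B limit what could be seen of these genes.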
